A study of Mus musculus with 6 samples.

Results

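Thyroid hormone handling was followed in 7 genes, chosen by name from 56691 gene rows in mouse bone marrow-derived macrophages treated under thiothixene. The members are the deiodinase genes Dio1, Dio2 and Dio3, the transporter genes Slc7a8 and Slc16a10, and the receptor genes Thra and Thrb. All 7 identifiers were found in the 6 count tables, and 5 members passed the filter on low counts. The group was proposed because Dio2 stood near the top of the thiothixene comparison in these libraries. The contrast of Dio2 is therefore a description, with no test offered as support, and the other members entered by their function.

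The thiothixene group comprised macrophages given 2 µM thiothixene, an antipsychotic that blocks dopamine receptors, for 24 h from day 6 of culture. The DMSO group received the solvent for the same time. Cells of both groups were grown from the marrow of 3 mice, named a, b and c, and were plated on day 4. Each mouse gave a library per treatment, and no source used here gives the strain, sex or age of the mice. Levels are CPM, the counts of a gene relative to all gene counts of its library on the usual CPM scale, with library sizes adjusted by the TMM method.

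Thyroid hormone is secreted mainly as the prohormone T4, which the selenoenzyme DIO2 converts inside cells to the active T3. DIO1 can also activate the hormone, in liver, kidney and thyroid, and DIO3 inactivates it. T4 and T3 enter cells through transporters, and T3 binds nuclear receptors that pair with retinoid X receptors. Dio2 transcription is known to respond to cyclic AMP through the factor CREB.

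Dio2 is the member whose levels set the treatments apart, so the promoter sequences of the deiodinase genes are shown first. Each line gives the 250 bases before the RefSeq gene start on the gene's own strand, from build GRCm38.p6, and capitals mark the cyclic AMP response element TGACGTCA. The sequences lie at chr12:90739039-90739288 on the minus strand for Dio2, chr4:107307169-107307418 on the minus strand for Dio1 and chr12:110278980-110279229 on the plus strand for Dio3. In the GENCODE M21 annotation Dio3 starts at 110279068, inside this stretch. The bases from there on are therefore Dio3 exon in that annotation and not sequence before the gene.
Dio2: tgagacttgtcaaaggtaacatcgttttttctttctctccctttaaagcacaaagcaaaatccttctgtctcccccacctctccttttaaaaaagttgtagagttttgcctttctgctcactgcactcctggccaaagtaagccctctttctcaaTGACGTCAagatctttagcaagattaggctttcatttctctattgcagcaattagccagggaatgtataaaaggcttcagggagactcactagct
Dio1: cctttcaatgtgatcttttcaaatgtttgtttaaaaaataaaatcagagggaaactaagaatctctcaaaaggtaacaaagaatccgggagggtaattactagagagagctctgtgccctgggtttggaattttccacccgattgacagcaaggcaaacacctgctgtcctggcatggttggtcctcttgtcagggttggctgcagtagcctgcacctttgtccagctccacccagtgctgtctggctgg
Dio3: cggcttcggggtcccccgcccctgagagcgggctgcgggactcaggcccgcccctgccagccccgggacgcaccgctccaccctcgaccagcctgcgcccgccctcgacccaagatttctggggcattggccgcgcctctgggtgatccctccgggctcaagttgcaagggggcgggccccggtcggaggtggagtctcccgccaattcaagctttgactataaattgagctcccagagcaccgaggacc
The Dio2 element spans bases 95 to 88 before the gene start, at chr12:90739126-90739133, and reads the same on both strands. It occurs in 588 of 32851 mouse promoter windows of 300 bases (250 before and 50 after the start), a share of 1.79%. No other member window held it. The AP-1 site TGANTCA, present in 7.81% of windows, and the thyroid response element DR4, a repeat of AGGTCA after a gap of 4 bases, present in 0.0152%, matched no member window on either strand. So no match overlapped another. Windows were found for 6 of the 7 members, 7 windows in all since Thrb has a pair of them, and Thra was not matched. A match in letters is a description of the sequence and not evidence of a working site.

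The libraries held 10472349 to 22297520 counts assigned to genes, the fewest for mouse b under DMSO. Within a treatment, pairs of libraries correlated (log2 CPM over genes, a description) at 0.949 to 0.981 under thiothixene and at 0.825 to 0.916 under DMSO. The lowest belonged to the DMSO pair from mice b and c. Of 12 macrophage markers 11 were tested, among them Csf1r, Cd68 and Adgre1, while Itgam, which encodes CD11b, was listed at 0 in 5 libraries and at 0.0493 CPM in the other. The summed level of the 12 was 11172 to 12441 CPM under thiothixene and 10866 to 23093 CPM under DMSO. Of 8 markers of adipocytes, cells in which Dio2 is well known, 6 had no counts in any library and the summed level was at most 0.447 CPM. Over all genes edgeR's quasi-likelihood test called 0 of 14856 at an adjusted p of 0.05, or 0%. Its unadjusted p was under 0.05 for 256 (1.72%), fewer than the 743 that evenly spread p-values would give. DESeq2 called 2 of 24529 genes with an adjusted p, or 0.00815%, and limma-voom called 0.

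Dio2, which encodes the T4-activating deiodinase (ENSMUSG00000007682.9, chromosome 12, 90724552 to 90738438, minus strand of GRCm38), measured 11.4, 6.71 and 6.56 CPM under thiothixene in mice a, b and c, against 1.03, 1.12 and 1.49 CPM under DMSO. Each thiothixene library lay above each DMSO library, and the library of mouse a was the highest of all. The means were 8.21 ± 2.72 CPM under thiothixene and 1.21 ± 0.247 CPM under DMSO (SD, n = 3 each). Within mice the ratio of thiothixene to DMSO was 11.1, 6.01 and 4.39 in mice a, b and c. The lowest thiothixene library was 4.39-fold above the highest DMSO library, both from mouse c. These values rest on 239, 125 and 133 counts under thiothixene and on 23, 10 and 35 counts under DMSO. The thinnest of them, 10 counts for mouse b under DMSO, has an exact 95% Poisson interval of 0.536 to 2.05 CPM, and the lowest thiothixene value has one of 5.49 to 7.77 CPM. Both intervals cover counting error only.

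**Figure D1:**
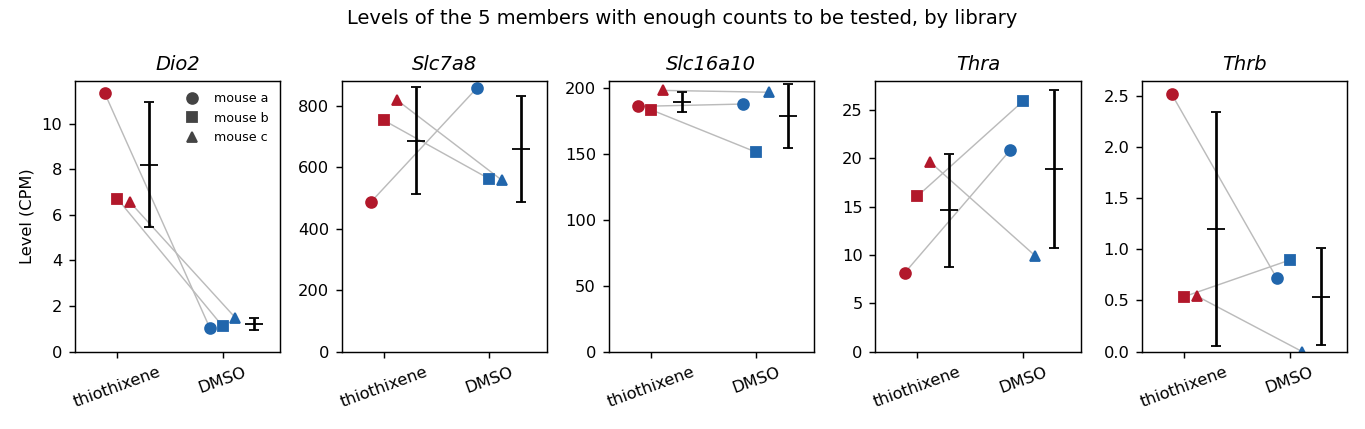
Levels in CPM of the 5 tested members in each library, thiothixene left and DMSO right, with a grey line joining the libraries of a mouse. Black marks give the mean and SD of 3 libraries. The thiothixene libraries lie at 6.56 CPM or more for Dio2 and the DMSO libraries at 1.49 CPM or less, while the groups overlap in the other panels.

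The fitted log2 fold change of Dio2 was 2.75 (SE 0.47), a 6.71-fold difference with a 95% interval of 3.19 to 14.1. That interval is not adjusted for the number of genes tested. edgeR did not call Dio2 in this fit (adjusted p 0.9998) or with the mouse as a block. limma-voom did not call it either (adjusted p 0.999955). Among tested genes, 576 (3.88%) had all thiothixene libraries above all DMSO libraries, the background against which the separation of Dio2 stands. Dio2 had an adjusted p of 0.00173 in DESeq2, the setting with 0.00815% of genes called. It was also called without mouse c in edgeR with the mouse as a block (0.0161, 0.302% of genes) and without the 3 libraries least like the rest, thiothixene a, DMSO b and DMSO c (0.00114, 6.99% of genes). Weighting libraries by quality in limma-voom left it uncalled (0.0638, 0.168% of genes called), as did DESeq2 with the block (0.220, 0.00408%) and edgeR without a low-count filter (0.445, 0.00408%). No other member was called under any of these settings, and nothing is read from the calls of Dio2, since this contrast chose it. By mean level Dio2 stood low in these cells, with 25.9% of tested genes below it. Since bulk RNA was measured, a change in the share of cells that express a gene and a change in RNA per cell cannot be told apart.

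Some marker lists moved with the treatments beside Dio2. The 9 osteoclast markers summed to 157 to 202 CPM under thiothixene and to 90.0 to 99.96 CPM under DMSO, mostly from Atp6v0d2, and 4 of 6 tested markers had a log2 fold change above 0. None of the 9 was at 0 in all libraries, and Calcr and Oscar were near 0. The 10 erythroid, mast cell and endothelial markers summed to 9.56 to 13.7 CPM under thiothixene and to 6.21 to 7.34 CPM under DMSO. Kdr was the largest part of each sum, and its groups did not overlap, while those of Pecam1, Cdh5 and Cpa3 did. Only 2 of 4 tested markers of this list had a log2 fold change above 0, and Hbb-bs and Mcpt4 were among those at 0. The 12 neutrophil markers summed to 400.03 to 450.1 CPM under thiothixene, with 0 of 11 tested above 0 in log2 fold change. Under DMSO they summed to 487, 906 and 458 CPM in mice a, b and c, the highest in the thinnest library. The macrophage markers likewise had 0 of 11 tested above 0 in log2 fold change, although their summed levels, given above, overlapped. Their highest sum, 23093 CPM, was also in the DMSO library of mouse b, against 15070 and 10866 CPM in mice a and c. edgeR called 0 markers of these lists, and their part in the Dio2 difference was not tested.

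A long noncoding RNA gene, Gm26512, starts on the opposite strand inside Dio2 and shares 100 exonic bases with it. It had 25, 11 and 26 counts under thiothixene and 7, 0 and 10 counts under DMSO in mice a, b and c. Its groups did not overlap either, at 0.591 to 1.28 CPM under thiothixene and 0 to 0.427 CPM under DMSO. The log2 fold change was 1.90 (SE 1.01, edgeR adjusted p 0.9998), which the test did not call. Over the 6 libraries its log2 CPM correlated with that of Dio2 at 0.80. Whether reads were counted by strand is not known from the sources used here, so reads in the shared bases cannot be assigned between the pair. The RefSeq start of Dio2 lies 600 bases beyond the GENCODE M21 end used here for its position, and none of those bases is exonic in Gm26512.

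The other deiodinases were near the limit of detection. Dio1 (ENSMUSG00000034785.16, chromosome 4, 107291465 to 107307169, minus strand) had 0 counts in all 6 libraries, which allows levels of up to 0.128 CPM in the deepest and 0.335 CPM in the thinnest library. Dio3, the inactivating enzyme (ENSMUSG00000075707.7, chromosome 12, 110279068 to 110281097, plus strand), had 2 counts under thiothixene in mouse c. With DMSO it had 1 count in mouse a and 1 in mouse b, and the rest were at 0. Neither passed the filter, and without it Dio3 stood at a log2 fold change of -0.38 (SE 2.34). Dio2 was thus the deiodinase gene with nearly all counts of its family, 565 against 4 for Dio3.

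Slc7a8 encodes LAT2, an amino acid exchanger that also carries thyroid hormone and works as a pair with the heavy chain SLC3A2 (ENSMUSG00000022180.8, chromosome 14, 54722209 to 54781946, minus strand). It was the most abundant member, above 99.1% of tested genes by mean CPM. Mice a, b and c gave 488, 752 and 819 CPM under thiothixene, against 856, 562 and 557 CPM under DMSO. The groups overlapped, with the lowest value in the thiothixene and the highest in the DMSO library of mouse a. Thiothixene was the higher library in mice b and c and the lower in mouse a. Means were 686 ± 175 CPM under thiothixene and 658 ± 171 CPM under DMSO (SD, n = 3 each). The log2 fold change was 0.06 (SE 0.32, edgeR adjusted p 0.9998), and the 95% interval of the fold, 0.624 to 1.74, leaves room for differences in both directions.

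Slc16a10 encodes MCT10, a carrier of aromatic amino acids and thyroid hormone (ENSMUSG00000019838.12, chromosome 10, 40033532 to 40142258, minus strand). Its levels were the steadiest of the group, at 186, 184 and 198 CPM under thiothixene and 188, 152 and 197 CPM under DMSO for mice a, b and c. The groups overlapped, and the DMSO library of mouse b, also the thinnest, was the lowest. Across the 6 libraries its log2 CPM correlated at 0.97 with log2 library size, a description over libraries that include the thinnest. Means were 190 ± 7.82 CPM under thiothixene and 179 ± 24.1 CPM under DMSO (SD, n = 3 each). The log2 fold change was 0.08 (SE 0.26, edgeR adjusted p 0.9998), and the 95% interval of the fold was 0.702 to 1.60.

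Thra encodes thyroid hormone receptor alpha and, by splicing, a variant that does not bind the hormone. Gene counts do not separate these forms (ENSMUSG00000058756.14, chromosome 11, 98740638 to 98769006, plus strand). Levels were 8.17, 16.1 and 19.6 CPM under thiothixene and 20.9, 25.9 and 9.90 CPM under DMSO for mice a, b and c. The groups overlapped, and the mice differed in direction, since thiothixene was the lower library in mice a and b and the higher in mouse c. The log2 fold change was -0.36 (SE 0.47, edgeR adjusted p 0.9998), with a 95% interval of the fold from 0.367 to 1.65. Without the libraries of mouse a, and with the mouse as a block, it was 0.15.

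Nr1d1, a circadian repressor gene on the opposite strand, shares 263 exonic bases with Thra. Its libraries ran 5.98, 7.09 and 9.42 CPM under thiothixene and 13.7, 19.4 and 5.55 CPM under DMSO. The order of the DMSO libraries was the same as for Thra, highest in mouse b and lowest in mouse c. The log2 CPM of the pair correlated at 0.89 over the 6 libraries, and Nr1d1 had a log2 fold change of -0.78 (SE 0.49), which edgeR did not call. Without a stated strand setting, reads in the shared bases cannot be told apart, so the level of Thra is uncertain to that extent.

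Thrb encodes thyroid hormone receptor beta (ENSMUSG00000021779.20, chromosome 14, 17660261 to 18038090, plus strand). It had 53, 10 and 11 counts under thiothixene and 16, 8 and 0 counts under DMSO for mice a, b and c. In CPM these were 2.52, 0.537 and 0.543 under thiothixene and 0.715, 0.894 and 0 under DMSO. The groups overlapped, and the thiothixene library of mouse a stood above the other libraries. The log2 fold change of 1.22 (SE 1.29, edgeR adjusted p 0.9998) rested on that library and was 0.06 without it. The 95% interval of the log2 fold change, -1.74 to 4.17, spans 0 widely.

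**Figure D2:**
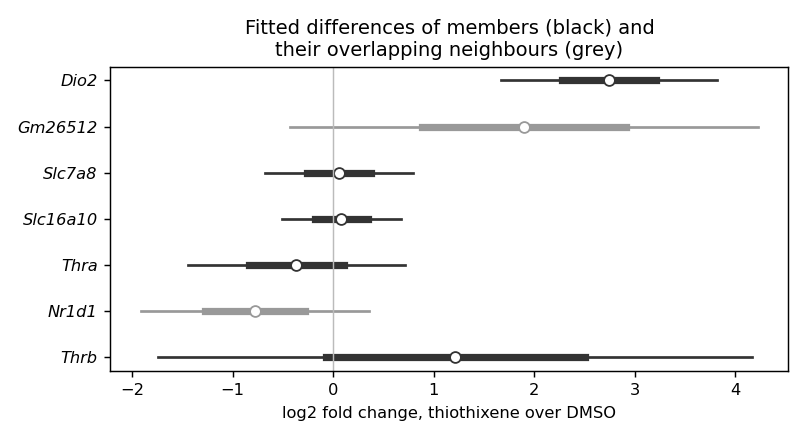
Fitted log2 fold changes, thiothixene over DMSO, of the 5 tested members in black and of the neighbours Gm26512 and Nr1d1 in grey. Thick bars are 1 SE and thin bars the 95% interval, which lies above 0 for Dio2, at 1.67 to 3.82, and spans 0 for the others. The intervals are not adjusted for the number of genes tested, and edgeR called none of these genes.

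Levels of different genes were compared per kilobase of exons, taken as the merged exons of all transcripts. In thiothixene libraries Slc7a8 averaged 137 CPM per kb, Slc16a10 25.8, Thra 3.17, Dio2 1.41, Thrb 0.162 and Dio3 0.0162 CPM per kb. In DMSO libraries the same order held, with Slc7a8 at 132 CPM per kb, Slc16a10 at 24.3, Thra at 4.09, Dio2 at 0.209, Thrb at 0.0724 and Dio3 at 0.0257 CPM per kb. The libraries of Thra and Dio2 overlapped under thiothixene but not under DMSO. The mean of Thra was 2.25-fold that of Dio2 under thiothixene, or 3.39-fold without the library of mouse a, and 19.6-fold under DMSO. Thrb and Dio3 overlapped under DMSO only, Dio3 and Dio1 in both groups, and the other neighbouring pairs in neither. Thra exceeded Thrb 19.6-fold under thiothixene and 56.5-fold under DMSO by these means. Without thiothixene a, which held most Thrb counts, the ratio was 53.1 under thiothixene, and it was 14.6 without thiothixene b and 12.8 without thiothixene c. Leaving out DMSO libraries gave 46.7 to 69.1. These ratios with a library left out were added after the data were seen.

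**Figure D3:**
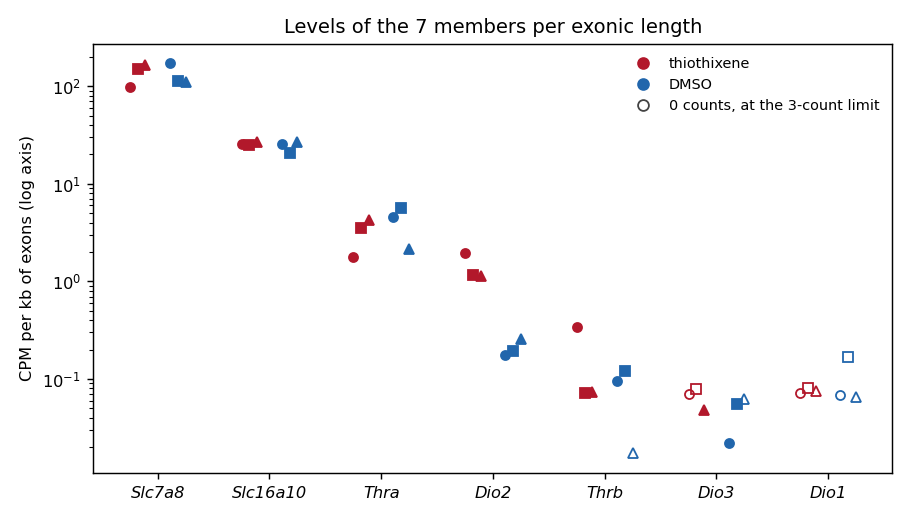
CPM per kb of merged exons on a log axis for the 7 members, thiothixene libraries in red and DMSO libraries in blue, with circles, squares and triangles for mice a, b and c. Open symbols are libraries with 0 counts, drawn at the level that 3 counts would give. Slc7a8 and Slc16a10 lie highest, Dio2 is the gene whose colours separate, and Dio1 has open symbols only.

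Across the 6 libraries the genes whose log2 CPM was most like that of Dio2, by Pearson correlation among 13517 genes with a mean of at least 1 CPM, were Ubl3 (0.99), AU022793 (0.98), Gm6209 (0.98), Chst11 (0.98) and Slc25a43 (0.98). Part of each value is the shared difference between treatments. For Slc16a10 the leading genes were Pik3ap1, Gm14048, Alg11, Slfn5os and Mex3c, all at 0.99 or above. For Slc7a8 they were Camkk2, Hif1an, Rims3, Sema4c and Acss2os, at 0.980 to 0.996. For Thra they were Bcl2l12, Mapk8ip3, Scarf1, AA986860 and Atp6v1g2, at 0.99 or above. The sparse Thrb gave mt-Tw, Armt1, Zfp661, Zfp473 and D230025D16Rik, at 0.966 to 0.981. In all, 992 genes correlated above 0.9 with Slc16a10, 697 with Thra, 122 with Slc7a8, 69 with Dio2 and 58 with Thrb. Each value rests on only 6 libraries, and what the correlated genes share was not tested. Among the members themselves the correlations with Dio2 were 0.37 for Slc16a10, -0.10 for Slc7a8, -0.48 for Thra and 0.44 for Thrb.

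The wider pathway was read from 8 lists with 93 genes, of which 68 were tested. Of these, 37 had a log2 fold change above 0 and 31 below 0, and edgeR called 0, with 2 at an unadjusted p under 0.05 (1.72% over all genes). In 2 genes all thiothixene libraries lay above all DMSO libraries, and in 0 below, against 3.88% and 2.77% of all tested genes. The median was 0.03, against -0.04 over all tested genes, where 45.3% lay above 0.

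Other thyroid hormone transporters and the partners of LAT2 had 5 of 9 members tested, 3 above 0, with a median log2 fold change of 0.06. Slco1c1, which encodes a thyroxine transporter of the brain's barriers, had 0 counts. The LAT2 heavy chain gene Slc3a2 averaged 410 ± 98.6 CPM under thiothixene and 528 ± 287 CPM under DMSO, a log2 fold change of -0.36 (SE 0.42). The neutral amino acid carrier gene Slc43a2 averaged 642 ± 102 CPM under thiothixene and 615 ± 243 CPM under DMSO. Slc7a5, which encodes the related light chain LAT1, averaged 35.5 ± 5.93 CPM under thiothixene and 29.2 ± 3.78 CPM under DMSO. Per kb, Slc7a8 exceeded Slc7a5 14.3-fold under thiothixene and 16.7-fold under DMSO. Slco4a1, named after its values were seen, encodes an organic anion transporter that carries the hormone. It measured 3.80, 3.22 and 4.73 CPM under thiothixene and 1.12, 2.35 and 1.96 CPM under DMSO for mice a, b and c. Its groups did not overlap, but edgeR did not call it (log2 fold change 1.13, SE 0.51).

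Receptor partners and coregulators had 14 of 15 members tested, 10 above 0, with a median of 0.16. The coactivator gene Ncoa3 averaged 215 ± 8.01 CPM under thiothixene and 187 ± 72.7 CPM under DMSO. The corepressor gene Ncor1 stood at a log2 fold change of 0.05 (SE 0.46). Of the retinoid X receptor genes, Rxrg had 0 counts. Rxra averaged 141 ± 33.8 CPM under thiothixene and 122 ± 50.1 CPM under DMSO. Rxrb averaged 26.1 ± 17.6 CPM under thiothixene and 42.0 ± 36.7 CPM under DMSO. Rxra and Rxrb were named after their values were seen.

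DIO2 is a selenoprotein, and all 10 genes of selenoprotein synthesis were tested, 5 above 0, with a median of -0.01. The abundant Ncl and Rpl30, whose products bind selenocysteine insertion elements besides their other roles, stood at log2 fold changes of -0.28 (SE 0.28) and -0.63 (SE 0.43). Sephs2, which makes the selenium donor, stood at -0.30 (SE 0.31). DIO2 protein is removed by ubiquitin ligases, and 7 of 7 genes of that control were tested, 3 above 0, with a median of -0.03. The ligase adaptor gene Wsb1 averaged 160 ± 27.3 CPM under thiothixene and 141 ± 75.5 CPM under DMSO. March6, a membrane ligase gene, and Ube2j1, a conjugating enzyme gene, stood at log2 fold changes of 0.19 (SE 0.37) and -0.03 (SE 0.25).

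Genes of hormone binding and inactivation mostly had no or few counts, with 1 of 8 tested. Crym, Ttr, Serpina7, Sult1b1, Iyd and Ugt1a1 had 0 counts, and the sulfotransferase gene Sult1a1 averaged 1.85 ± 0.352 CPM under thiothixene and 1.85 ± 0.632 CPM under DMSO.

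Genes known to respond to thyroid hormone in liver, fat or muscle had 11 of 17 members tested, 7 above 0, with a median of 0.22. The list's most abundant members were Ucp2, a mitochondrial carrier gene (-0.64, SE 0.43), Atp2a2, a calcium pump gene (0.23, SE 0.36), and Cpt1a, of fatty acid import into mitochondria (0.22, SE 0.30). Klf9, a direct receptor target, averaged 6.75 ± 1.06 CPM under thiothixene and 5.47 ± 1.73 CPM under DMSO. Klf9 and the genes that follow in this list were named after their values were seen. The classical targets Thrsp and Hr had 6 and 5 counts over all libraries. Fasn, the fatty acid synthase gene, had a log2 fold change of 0.79 (SE 0.33), which edgeR did not call.

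Receptors and factors known to act on Dio2 had 9 of 14 members tested, 3 above 0, with a median of -0.08. Prkacb, a catalytic subunit of the cyclic AMP-dependent kinase, averaged 252 ± 46.4 CPM under thiothixene and 286 ± 144 CPM under DMSO. Nfkb1 and Foxo3 stood at log2 fold changes of -0.10 (SE 0.28) and 0.23 (SE 0.32). The receptor genes Tshr, Gpbar1, Adrb1 and Adrb3 had 0 to 12 counts each in all libraries together. Genes of the cyclic AMP response had 11 of 13 members tested, 5 above 0, with a median of -0.04. Rgs2, Fos and Pde4d had log2 fold changes of -0.16 (SE 0.30), -0.25 (SE 0.49) and 0.02 (SE 0.44).

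**Figure D4:**
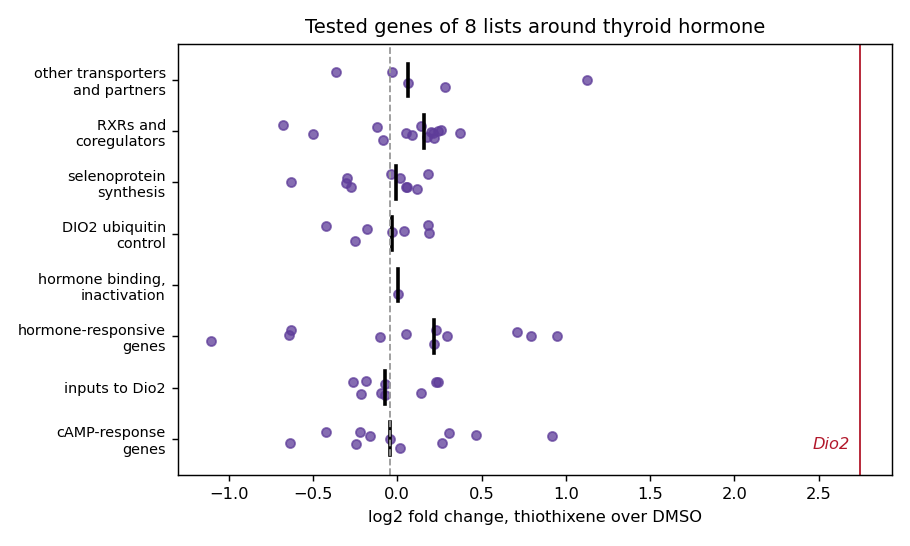
Log2 fold changes, thiothixene over DMSO, of the tested genes of 8 lists, a point per gene, with a black bar at each list's median. The dashed line is the median of all tested genes, -0.04, and the red line is Dio2 at 2.75, above every point shown.

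**Figure D5:**
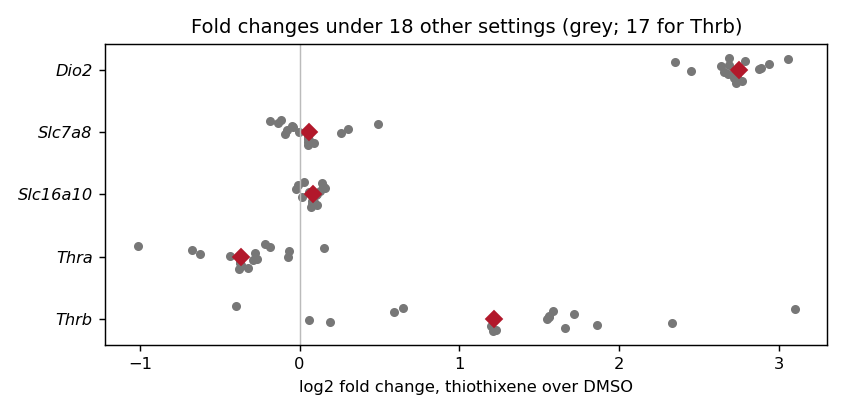
Log2 fold changes of the tested members as first fitted (red diamonds) and under each other setting (grey points, 18 per gene and 17 for Thrb). Dio2 stays between 2.35 and 3.06, Slc16a10 between -0.02 and 0.16, and the points of the other genes spread across 0.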

How the data were processed

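RNA from 6 libraries, 3 under thiothixene and 3 under DMSO, underwent paired-end Illumina sequencing, per the labels' protocols. The deposited values are raw counts of reads per gene, in whole numbers, with a table for each library and 56691 gene rows. A further 5 rows name no gene, hold reads outside any gene (43.1% to 44.3% of all rows' counts), ambiguous reads (1.68% to 3.02%), unaligned or multiply aligned reads, and stayed out of sizes and tests. STAR 2.7.11b, DESeq2 1.44, mm10 and also FastQC 0.11.8 and Trim Galore 0.6.10 are listed, per the submitters' processing notes. What program counted the reads, on which annotation and strand, is not stated there. Symbols, positions and exonic lengths came from GENCODE M21 (GRCm38), where 52073 identifiers matched without versions and 4618 did not. Promoters came from RefSeq.

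edgeR 4.0.16 (R 4.3.3) was fitted over the whole table with robust quasi-likelihood, TMM scaling, its expression filter (14856 genes) and treatment as the sole term. Benjamini-Hochberg adjustment was made over all of them. SE was taken from the F statistic, as log2 fold change over root F in size, and 95% intervals from the t distribution with the total degrees of freedom of the fit. The 7 members and all lists were chosen with earlier results of these data known. Named genes were all members, the genes that share exons with them, the 3 tested genes of highest mean CPM in each list and the 5 genes most like each tested member, with log2 CPM at a prior count of 2. Some genes that this rule or the lists name are not reported here. Markers served as a check of cell type.

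The sample titles name a mouse, a, b or c, under both treatments, which pairs the libraries by label. The paired deviations from group means had correlations of -0.131, 0.318 and -0.301 in mice a, b and c, and the highest, 0.486, was between thiothixene a and DMSO c, so the values do not show the pairing. The mouse as a replicate block, other scaling and filters, DESeq2 1.42.0, limma-voom (limma 3.58.1) with and without library quality weights, and fits without libraries or mice were tried. Limits from counts of 0 use 3 counts and, like Poisson intervals, cover counting error only.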

Additional observations from a re-analysis of the deposited data

How the results depend on the processing

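The number of genes called was 0 in edgeR with all libraries and also with the replicate block, RLE size factors, the stricter filter, an adjusted p of 0.1 and limma-voom. It was 1 without a low-count filter, 2 in DESeq2, 1 in DESeq2 with the replicate block, 25 with library quality weights and 0 to 45 in fits without single libraries or mice, the 45 without mouse c and with the block. It was 1105 (6.99% of genes) without the 3 libraries that stand apart, thiothixene a, DMSO b and DMSO c. That fit sets 2 thiothixene libraries against a lone DMSO library, assumed to vary like them, from another mouse. Members called numbered 1, Dio2, in DESeq2 (adjusted p 0.00173), without mouse c with the block (0.0161) and without the 3 libraries (0.00114), and 0 elsewhere, so 0 to 1 when libraries or mice were left out. As Dio2 was picked on this contrast, these calls are a description. Its log2 fold change was 2.72 with the replicate block, and the block changed no call of a member in edgeR. Of the pathway genes 10 were called without the 3 libraries and 0 to 2 in fits without libraries or mice. The cause of these shifts was not tested, though several of those fits held fewer libraries. With deviations from the group means the correlations with Dio2 became 0.887 for Ubl3, 0.905 for AU022793, 0.754 for Gm6209, 0.587 for Chst11 and 0.819 for Slc25a43.

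No value that changed sign was called with all 6 libraries. Without the 3 libraries, in the fit with a lone DMSO library, Slc43a2 (log2 fold change -0.349) and Fos (0.504) turned sign. In the same fit Ucp2 (-0.542), Prkacb (-0.422) and Nfkb1 (-0.429) kept their sign. With quality weights the log2 fold change turned for Slc7a8 -0.091, Slc3a2 0.060, Slc43a2 -0.249, Ncor1 -0.145, Rpl30 0.141, Ncl 0.081, March6 -0.105, Sult1a1 -0.468, Cpt1a -0.012, Foxo3 -0.057, Pde4d -0.0085 and Fos 0.382. Without the 3 libraries it turned for Slc7a8 -0.119, Thrb -0.395, Slc3a2 0.175, Slc43a2 -0.349, Ncor1 -0.249, Ncoa3 -0.0079, Rpl30 0.297, Ncl 0.185, March6 -0.173, Sult1a1 -0.491, Cpt1a -0.095, Foxo3 -0.216, Pde4d -0.084 and Fos 0.504. Ube2j1 turned to 0.00079 without a filter and Sult1a1 to -0.0030 with RLE factors.

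In fits without a single library, signs turned for some genes at least once, and their log2 fold changes ran over Slc16a10 -0.022 to 0.16, Slc7a8 -0.079 to 0.302, Slc3a2 -0.625 to 0.172, Slc43a2 -0.101 to 0.445, Ncor1 -0.342 to 0.401, Ncoa3 -0.085 to 0.434, Wsb1 -0.118 to 0.683, March6 -0.116 to 0.394, Ube2j1 -0.090 to 0.053, Sult1a1 -0.238 to 0.28, Atp2a2 -0.051 to 0.594, Nfkb1 -0.251 to 0.041, Prkacb -0.523 to 0.202, Pde4d -0.292 to 0.511 and Fos -0.49 to 0.24. Without mouse a, with the replicate block, signs turned for Thra 0.153, Pde4d -0.118 and Fos 0.069. Without mouse b, with the replicate block, signs turned for Slc16a10 -0.0066, Slc7a8 -0.132, Slc3a2 0.082, Slc43a2 -0.101, Ncor1 -0.326, Ncoa3 -0.057, Rpl30 0.0023, March6 -0.056 and Pde4d -0.294. Without mouse c, with the replicate block, signs turned for Slc7a8 -0.186, Slc43a2 -0.1, Ube2j1 0.089, Sult1a1 -0.298, Nfkb1 0.015, Prkacb 0.379 and Rgs2 0.055.

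Of 89 comparisons of members with other settings, 74 kept direction and side of the threshold, 12 changed sign and 3 gained a call, all of Dio2. The stricter filter removed Thrb. Depth limits Dio1, Dio3, Thrb and the DMSO values of Dio2, most in the DMSO library of mouse b.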

Other observations

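Genes with the letters of the Dio2 promoter element, Dio2 itself among them, stood close to the rest. Of 350 tested genes with TGACGTCA in a promoter window, 44.3% were above 0 in log2 fold change and their median was -0.04, against 44.6% and -0.05 over the 10285 tested genes with a window. All thiothixene libraries lay above all DMSO libraries for 11 of the 350 (3.14%), Dio2 included, against 3.65% of those 10285. A match in letters does not mark a working site, so how genes that respond to CREB moved was not tested. Among the lists around thyroid hormone, the element was found in windows of Wsb1, Dusp1 and Areg, named after the search. Dusp1 averaged 39.2 ± 16.4 CPM under thiothixene and 31.7 ± 12.2 CPM under DMSO, and Areg had 0 counts.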
